A study of Mus musculus with 16 samples.

Results

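The Polycomb genes described here are 10 genes of the 2 Polycomb repressive complexes: Ezh1, Ezh2, Eed, Suz12 and Jarid2 of PRC2, and Bmi1, Rnf2, Cbx2, Cbx7 and Cbx8 of PRC1. They were taken by symbol from a table of 24043 entries that holds RNA sequencing values of 16 lung tumors from mice, labelled small cell lung cancer, which is a cancer of neuroendocrine type. All 10 were found, and all 10 passed the filter on low values that left 13123 genes for testing (at least 1 FPKM, fragments per kilobase of transcript normalized to library size, in at least 8 tumors). The tumors fell into 8 labelled sgKdm5a RPP and 8 labelled sgControl RPP. The sgKdm5a RPP mice received an adenovirus with a guide to Kdm5a, whose protein removes methyl groups from lysine 4 of histone H3, and the sgControl RPP mice received the control virus. By general knowledge of this model, and not from the labels, RPP stands for guides against Rb1, Trp53 and Rbl2, which both groups share. All mice carried the H11-LSL-Cas9 transgene on a B6;129 background, were 2 to 4 months old when injected through the trachea with 400000000 viral particles, and gave tumors at the study endpoint. Cre was driven by the CMV promoter, which is active in many cell types, and the tumors were bulk tissue, so fewer cells of a type and less RNA per cell cannot be told apart. Each library carried a lung tumor number of its own, 190 to 238 for 11 tumors and 839 to 893 for 5. The labels do not say whether each tumor came from a separate mouse, so p-values measure the spread between these tumors.

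Polycomb proteins keep developmental genes silent. PRC2 methylates histone H3 at lysine 27 through Ezh1 or Ezh2, and PRC1 ubiquitinates histone H2A and compacts chromatin, drawn in part to the methyl mark by its Cbx subunits. The Hox clusters are the classical targets of both complexes, and the Cdkn2a locus is a known target of Bmi1. Ezh2 is known as an E2F-regulated gene of dividing cells and is abundant in small cell lung cancer, whereas Ezh1 is the form of resting tissue.

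Facts that touch every value below come first. In sgControl-labelled tumor 1, the entry Mir6236 held 88.9% of the summed FPKM, against 5.76% to 15.2% in the other 15 tumors, and its median tested gene stood at 2.38 FPKM, against 10.0 to 12.3 FPKM elsewhere. All libraries were therefore brought to the same median, and levels are given as scaled FPKM. Kdm5a RNA went against the labels: it was 8.57 at the lowest, 12.1 at the median and 20.3 scaled FPKM at the highest in the sgKdm5a RPP tumors, against 5.67, 7.72 and 16.3 in the sgControl RPP tumors (log2 difference 0.61, two-sided exact permutation p = 0.00886 over 12870 assignments of 8 and 8 tumors). RNA does not show whether the gene was edited, so the groups are called sgKdm5a-labelled and sgControl-labelled, and every direction rests on those labels. Rb1 and Rbl2 were lower in the sgKdm5a-labelled tumors (log2 difference -0.71 for each, exact permutation p = 0.0312 and 0.00808, against 0.0505 and 0.0642 without scaling). Among tumors 190 to 238 they differed by -0.67 and -0.73 (exact permutation p = 0.197 and 0.0273). With 1 tumor left out Rb1 kept an exact permutation p under 0.05 in 10 of 16 runs, and Rbl2 in all 16; without sgControl-labelled tumor 1, which held 45.0 scaled FPKM of Rb1, the Rb1 difference was -0.47 (exact permutation p = 0.0608). Trp53 differed by -0.26 (exact permutation p = 0.590). All 15 neuroendocrine markers examined passed the low-value filter, with summed levels of 4487 to 12837 scaled FPKM in sgKdm5a-labelled tumors and 2803 to 14066 in the sgControl-labelled tumors.

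Among the Polycomb genes, Suz12 and Ezh2 had the most RNA per length and Cbx8 the least. Median levels over the 16 tumors, in scaled FPKM, were 41.4 for Suz12, 41.2 for Ezh2, 31.3 for Bmi1, 29.6 for Eed, 20.1 for Cbx2, 18.7 for Cbx7, 12.8 for Rnf2, 10.5 for Jarid2, 9.98 for Ezh1 and 7.20 for Cbx8. Suz12 and Ezh2 lay above 84.7% and 84.6% of tested genes by their medians, and Cbx8 above 35.4%. The clearest steps in this order were Cbx7 above Rnf2 and Ezh1 above Cbx8, each in 15 of 16 tumors. Suz12 exceeded Ezh2 in 8 of 16 tumors and Jarid2 exceeded Ezh1 in 9, so the levels of these neighbours were not separated. Ezh2 varied most, with a highest tumor 13.4 times its lowest, and Eed least, with a ratio of 1.82.

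The proximal promoters of the 4 genes on which most of what follows turns are shown because Ezh2 carried the largest label difference of the group and Suz12, Jarid2 and Bmi1 were alike in level across tumors. Each run is the 250 bases before the annotated start of the gene, 5′ to 3′ on the gene's strand, from RefSeq on GRCm38.p6. Capitals mark the CCAAT box, known in promoters of cell cycle genes (CCAAT, or ATTGG on the other strand), and E2F words (TTTCCCGC, TTTCGCGC, TTTGCCGC or TTTGGCGC on either strand). The E2F and CCAAT words do not overlap in these runs. The windows lie at chr6:47595031-47595280 on the minus strand for Ezh2, chr11:79992856-79993105 on the plus strand for Suz12, chr13:44730524-44730773 on the plus strand for Jarid2 and chr2:18676768-18677017 on the plus strand for Bmi1.
Ezh2: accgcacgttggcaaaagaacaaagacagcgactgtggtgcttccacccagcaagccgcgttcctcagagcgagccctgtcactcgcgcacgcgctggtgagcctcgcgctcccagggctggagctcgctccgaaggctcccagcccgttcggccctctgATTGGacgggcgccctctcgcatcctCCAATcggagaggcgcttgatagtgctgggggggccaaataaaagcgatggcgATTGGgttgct
Suz12: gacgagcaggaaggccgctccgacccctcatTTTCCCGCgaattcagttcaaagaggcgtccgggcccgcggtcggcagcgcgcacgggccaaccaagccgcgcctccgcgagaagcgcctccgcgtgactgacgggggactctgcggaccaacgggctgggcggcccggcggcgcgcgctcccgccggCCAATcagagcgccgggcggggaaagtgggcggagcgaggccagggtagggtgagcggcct
Jarid2: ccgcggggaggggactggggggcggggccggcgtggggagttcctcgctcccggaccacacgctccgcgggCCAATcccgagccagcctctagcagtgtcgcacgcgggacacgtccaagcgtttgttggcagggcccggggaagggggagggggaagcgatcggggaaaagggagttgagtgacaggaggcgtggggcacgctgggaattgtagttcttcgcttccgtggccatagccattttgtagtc
Bmi1: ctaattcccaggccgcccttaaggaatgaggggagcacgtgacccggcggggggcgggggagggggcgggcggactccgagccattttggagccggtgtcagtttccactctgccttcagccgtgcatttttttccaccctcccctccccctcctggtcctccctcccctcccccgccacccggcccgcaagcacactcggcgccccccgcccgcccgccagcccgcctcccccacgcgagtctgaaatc

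The Ezh2 window held 3 CCAAT words, the Suz12 and Jarid2 windows 1 each, and the Bmi1 window none. Across the 9 of 10 Polycomb genes with an entry (Cbx2 had none), 5 of 10 windows held a CCAAT word, against 33.8% of 32851 mouse promoter windows of the same length. The second Jarid2 window, from an alternative start, held none. An E2F word was found in 1 of the 10 windows, that of Suz12, 219 bases before its start, against 1.86% of all windows. For 16 windows of the mitosis genes listed below, 14 held a CCAAT word and 1 an E2F word. These matches describe letters and were not tested for binding.

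The study's own comparison asks what the tumors labelled for Kdm5a loss express differently. Over all tested genes, 0 were called higher and 0 lower in the sgKdm5a-labelled tumors (0% of 13123 in each direction, limma with Benjamini-Hochberg adjustment, threshold 0.05), with 622 higher (4.74%) and 682 lower (5.2%) at an unadjusted p under 0.05. None of the 10 Polycomb genes was called, none separated the labels fully (4 genes, 0.0305%, did so lower and 10, 0.0762%, higher), and 1 of 10, Ezh2, was lower at an unadjusted p under 0.05. Of the 10 differences 5 were positive, with a median of -0.03 on the log2 scale, against 0.0022 over all tested genes; without scaling 8 were positive, with a median of 0.17 against 0.21.

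Ezh2, the catalytic subunit of PRC2 in proliferating cells, was the Polycomb gene that differed most between the labels. Its RNA was 8.88 at the lowest, 32.1 at the median and 45.0 scaled FPKM at the highest of the sgKdm5a-labelled tumors, against 36.3, 62.8 and 119 in the sgControl-labelled tumors. The groups overlapped only through sgControl-labelled tumor 5, at 36.3, which lay below sgKdm5a-labelled tumors 1 and 4, at 45.0 and 37.5; the other 7 sgControl-labelled tumors were above every sgKdm5a-labelled tumor. The log2 difference was -1.22 (95% interval -1.81 to -0.63), a fold of 0.429 on the log2(scaled FPKM + 1) scale. It ranked 19 of 13123 genes by p and missed the threshold over all genes (limma, adjusted p = 0.256). The two-sided exact permutation test, run on each Polycomb gene, gave p = 0.000466 for Ezh2 and 0.152 to 0.769 for the others. Without library scaling the Ezh2 difference was -0.96 (exact permutation p = 0.00917). These permutation values are not adjusted, and Ezh2 is singled out here for its large difference. Ezh2 was lower in all 26 other settings run, by 0.96 to 1.67, and the adjusted p ranged from 0.0413 to 0.852 (limma). It passed in 1 of those settings, the fit with sample weights (-1.01).

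Among the tumors numbered 190 to 238 the labels did not overlap in Ezh2. There the 4 sgKdm5a-labelled tumors held 8.88 to 35.7 scaled FPKM, below all 7 sgControl-labelled tumors at 56.3 to 119 (log2 difference -1.67, exact permutation p = 0.00303 over 330 assignments, limma adjusted p = 0.129). Such a full separation with the sgKdm5a-labelled tumors lower was found for 143 genes, 1.09% of those tested, and with them higher for 127, 0.968%; of the 10 Polycomb genes 1, Ezh2, was among these, and so was Phf19, a further PRC2 gene described below. Among tumors 839 to 893 the 4 sgKdm5a-labelled tumors held 28.7 to 45.0, around the only sgControl-labelled tumor of that series at 36.3. The label difference differed between the number series by 1.65 (SE 0.64; limma, adjusted p = 0.379), an estimate that rests on that 1 sgControl-labelled tumor. Without sgKdm5a-labelled tumor 2, the lowest at 8.88, the difference was -0.997 (adjusted p = 0.211, limma), and without sgControl-labelled tumor 1 it was -1.11 (adjusted p = 0.360, limma).

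Genes of dividing cells were mostly lower in the same comparison, without passing the test. Of 20 mitosis genes, 0 passed and 6 were lower at an unadjusted p under 0.05, against 5.2% of tested genes. Of their differences 19 of 20 were below 0, with a median of -0.36. For this and the marker lists below, 50.4% of all tested genes were above 0. Without library scaling 15 of 20 mitosis genes were below 0 with a median of -0.10, where the median of all tested genes was 0.21. Nusap1, a spindle protein, differed by -0.76 (limma, adjusted p = 0.343) and Mki67, the Ki-67 antigen of cycling cells, by -0.82 (limma, adjusted p = 0.403). A mitosis score, the mean log2(scaled FPKM + 1) of the 20 genes, averaged 5.46 ± 0.30 in sgKdm5a-labelled tumors, against 5.83 ± 0.40 in sgControl-labelled tumors (SD, n = 8 for both; difference -0.37, exact permutation p = 0.0573). With this score as a covariate the Ezh2 difference was -1.01 (limma, adjusted p = 0.659). Of 20 E2F and replication genes 0 passed and 2 were lower at an unadjusted p under 0.05, against 5.2% of tested genes. They were Uhrf1, a reader of hemimethylated DNA, at -0.45 and Pola1, a DNA polymerase alpha subunit, at -0.69 (limma, adjusted p = 0.371 and 0.444). Fibroblast markers ran the other way, with 6 of 6 tested markers above 0, a median difference of 1.02 and 0 passing. Their summed level was 34.8 to 1218 scaled FPKM in the sgKdm5a-labelled tumors (median 286) and 45.6 to 488 in the sgControl-labelled tumors (median 88.8), and none of the markers was at 0 in every tumor. Macrophage markers were above 0 in 8 of 8 tested, of 10 listed (median 0.34), endothelial markers in 7 of 8 (0.48) and alveolar type 2 markers in 5 of 6 (0.59), with 0 passing. Their summed levels in scaled FPKM were 351 to 1410, 59.6 to 165 and 28.9 to 2691 in sgKdm5a-labelled tumors, against 209 to 2260, 61.9 to 184 and 51.6 to 5195 in sgControl-labelled tumors. Ciliated, erythroid and neutrophil markers, 6 listed of each, ran lower among those tested, with 0 of 4, 0 of 4 and 0 of 2 above 0 (medians -0.43, -0.43 and -0.44). Of 7 T cell and 5 B cell markers listed, only 2 and 3 passed the low-value filter, and all of these were above 0 (0.20 and 0.82). Neuroendocrine markers were above 0 in 10 of 15 (0.27). None of these markers passed. The part of these cell types in the Ezh2 result was not tested.

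For Ezh1, Eed, Suz12 and Jarid2 of PRC2 the intervals of the label difference included 0. Ezh1, the paralog with weaker methyltransferase activity, was 5.99, 12.6 and 17.0 scaled FPKM at the lowest, median and highest of the sgKdm5a-labelled tumors, against 6.21, 9.15 and 11.3 in the sgControl-labelled tumors, with 5 of 8 sgKdm5a-labelled tumors above the highest sgControl-labelled tumor and 2 below the lowest. Its log2 difference was 0.29 (95% interval -0.15 to 0.73; limma, adjusted p = 0.667). Eed, which binds the methylated histone tail, held 22.5 to 40.9 in sgKdm5a-labelled tumors and 22.5 to 38.3 in the sgControl-labelled tumors, and Suz12, the scaffold of the complex, 32.3 to 54.3 and 32.03 to 69.5 in the same order of labels. Jarid2, an accessory subunit that helps bring PRC2 to its targets, held 6.45 to 17.6 in sgKdm5a-labelled tumors and 5.41 to 19.8 in the sgControl-labelled tumors. The log2 differences were 0.04 for Eed (95% interval -0.25 to 0.33), -0.18 for Suz12 (-0.56 to 0.20) and -0.17 for Jarid2 (-0.67 to 0.33), with limma adjusted p of 0.955, 0.771 and 0.844. Suz12 and Jarid2 were positive without library scaling, at 0.08 and 0.06.

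Within a library the ratio of a gene to another does not depend on scaling, and 5 ratios of Polycomb genes were examined as descriptions. Ezh2 over Ezh1 was 1.48 to 4.66 (median 2.87) in sgKdm5a-labelled tumors, against 3.32 to 14.3 (median 8.23) in sgControl-labelled tumors. Ezh2 over Eed was 0.297 to 1.505 in sgKdm5a-labelled tumors, against 1.57 to 3.54 in sgControl-labelled tumors, with no overlap. The ratio to Eed separated the labels fully in this direction for 3 of 13122 genes, 0.0229%. That share was counted for the ratio to Eed alone, the only ratio of the 5 without overlap. Ezh2 over Suz12 was 0.164 to 1.27 and 0.974 to 1.92 in the same order of labels and overlapped. So did Cbx2 over Cbx7, at 0.372 to 1.54 and 0.624 to 3.05, and Cbx8 over Cbx7, at 0.187 to 0.633 and 0.170 to 0.751. A ratio shows unequal levels and does not say which subunit changed.

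**Figure D1:**
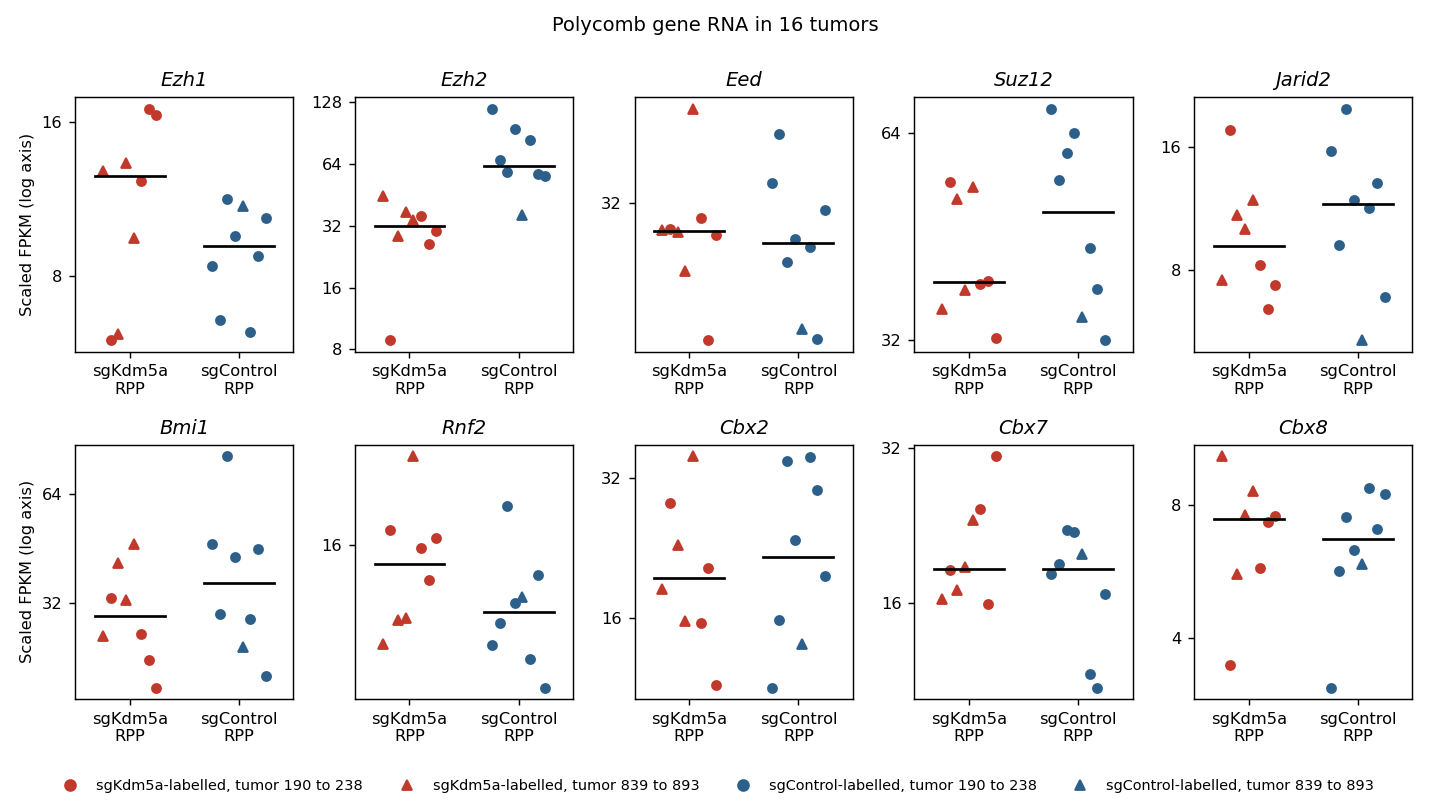
Scaled FPKM (log axis) of each of the 10 Polycomb genes in 16 tumors, with the sgKdm5a-labelled tumors left of the sgControl-labelled ones, circles for tumors 190 to 238, triangles for tumors 839 to 893 and bars at the medians. Ezh2 lies at 8.88 to 45.0 in sgKdm5a-labelled tumors and 36.3 to 119 in the sgControl-labelled tumors, while the other 9 genes overlap widely.

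PRC1 genes overlapped between the labels in every case. Bmi1, the Pcgf subunit that partners the ubiquitin ligase, was 18.8, 29.5 and 46.6 scaled FPKM at the lowest, median and highest of the sgKdm5a-labelled tumors and 20.2, 36.4 and 81.2 in the sgControl-labelled tumors (log2 difference -0.29, 95% interval -0.82 to 0.24; limma, adjusted p = 0.724). Rnf2, the ligase itself (Ring1B), held 10.7 to 23.1 in sgKdm5a-labelled tumors and 8.93 to 18.8 in the sgControl-labelled tumors (0.25, -0.11 to 0.60; limma, adjusted p = 0.651). The chromodomain readers differed by -0.10 for Cbx2 (-0.63 to 0.44), 0.22 for Cbx7 (-0.14 to 0.59) and 0.08 for Cbx8 (-0.35 to 0.51), with limma adjusted p of 0.931, 0.694 and 0.933. Cbx2 was positive without library scaling, at 0.12. Cbx8 was lowest in sgKdm5a-labelled tumor 2, at 3.48, and sgControl-labelled tumor 1, at 3.09, each below all other tumors. These intervals run from -0.82 at the lowest (Bmi1) to 0.60 at the highest (Rnf2) on the log2 scale, so the data do not show that the PRC1 genes are equal between the labels.

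**Figure D2:**
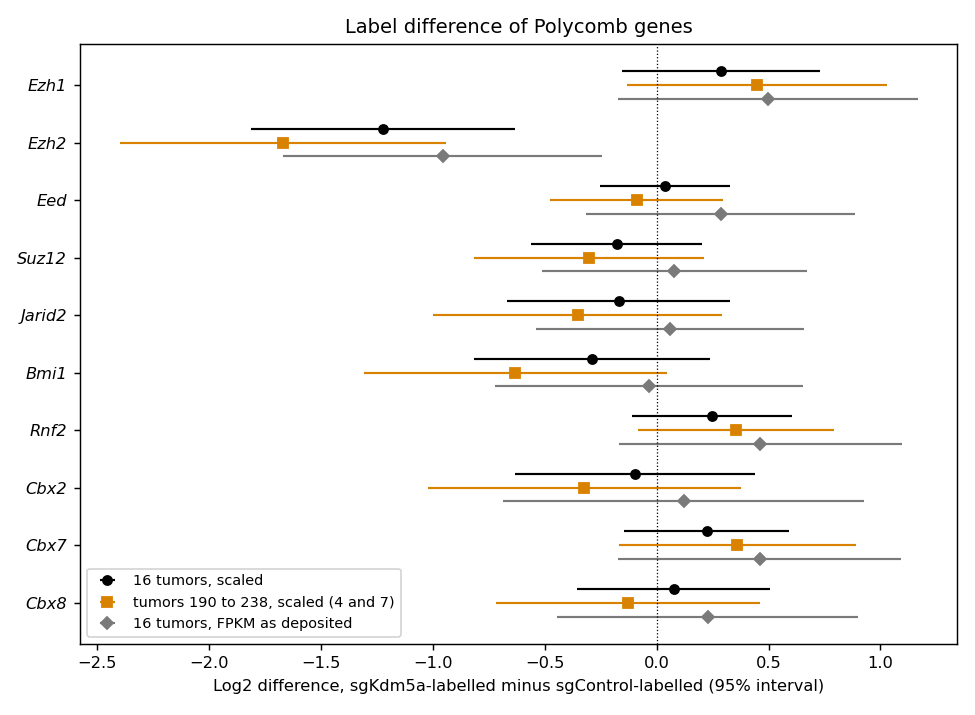
Log2 difference of each Polycomb gene, sgKdm5a-labelled minus sgControl-labelled, with 95% limma intervals for 16 scaled tumors (black), tumors 190 to 238 alone (orange, 4 and 7 tumors) and the FPKM as deposited (grey). The black Ezh2 interval, -1.81 to -0.63, does not reach 0, and those of the other 9 genes do.

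Further Polycomb genes, from a list of 6 other PRC2 genes, 22 other PRC1 genes and 6 genes of the H2A deubiquitinase PR-DUB and the H3K27 demethylases, gave 0 calls by label. At an unadjusted p under 0.05, where 5.2% of tested genes were lower and 4.74% higher, 1 of 6 other PRC2 genes was lower. It was Phf19, a Polycomb-like accessory protein, at -0.40 (limma, adjusted p = 0.442), and next came Aebp2, another accessory subunit, at -0.31 (adjusted p = 0.508). Phf19 held 6.76 to 14.9 scaled FPKM in the sgKdm5a-labelled tumors and 8.48 to 17.0 in the sgControl-labelled tumors. Among tumors 190 to 238 it held 6.76 to 11.7 in sgKdm5a-labelled tumors, below the sgControl-labelled tumors at 12.7 to 17.0. Of the other PRC1 genes 1 of 22 was lower at that level, Scml2, at -0.63 (limma, adjusted p = 0.473), followed by L3mbtl2, an MBT-domain subunit of variant PRC1, at 0.26 (adjusted p = 0.577). Of the third list 0 of 6 reached it, with Bap1, the deubiquitinase, at -0.23 and its partner Asxl1 at -0.24 (adjusted p = 0.733 and 0.783). The medians of these lists were -0.21, -0.13 and -0.11, and 0.05, 0.09 and 0.08 without library scaling, all below the medians of all tested genes in the same fits, 0.0022 and 0.21. Cdkn2a and Cdkn2b, cell cycle inhibitors of a locus that Polycomb is known to silence, differed by 0.11 and 0.40 (limma, adjusted p = 0.909 and 0.699).

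The Hoxb cluster was the Hox cluster with RNA in these tumors. Summed Hoxb RNA reached 685 scaled FPKM, whereas summed Hoxa RNA did not exceed 8.93, Hoxc 0.495 and Hoxd 4.58. Hoxb2 to Hoxb9 passed the filter, and Hoxb1 and Hoxb13 did not, with at most 0.138 and 0.160 scaled FPKM. The spread between tumors was wide: Hoxb6, with the highest single value, was 0.326 at the lowest, 66.8 at the median and 186 at the highest in the sgKdm5a-labelled tumors, against 0.472, 12.0 and 66.0 in the sgControl-labelled tumors. Hoxb9 was 0 to 90.7 (median 28.5) in sgKdm5a-labelled tumors, against 0.0905 to 39.5 (median 1.35) in sgControl-labelled tumors, and Hoxb2, at the other end of the cluster, 0.682 to 52.5 (median 49.1) and 0.536 to 55.1 (median 30.6) in the same order of labels. Hoxb3, Hoxb4, Hoxb5, Hoxb7 and Hoxb8 had highest values of 16.5, 25.5, 126, 85.3 and 108 in the sgKdm5a-labelled tumors and 16.5, 18.4, 45.7, 76.0 and 35.9 in the sgControl-labelled tumors. All 8 tested Hoxb genes had positive label differences, from 0.60 for Hoxb3 to 2.27 for Hoxb9, and 0 were called (limma, adjusted p of 0.463 to 0.816).

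**Figure D3:**
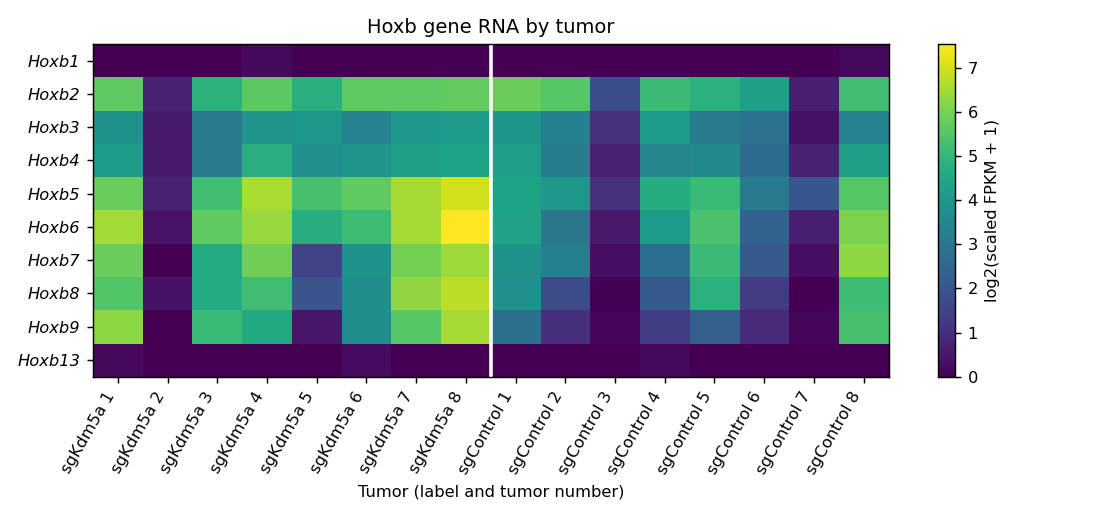
Log2(scaled FPKM + 1) of the 10 Hoxb genes (rows) in the 16 tumors (columns), with the sgKdm5a-labelled tumors left of the white line and the sgControl-labelled tumors right of it. Dark columns mark sgKdm5a-labelled tumor 2 and sgControl-labelled tumors 3 and 7, where the mean over the cluster is 0.34, 0.57 and 0.48.

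The Hoxb level of a tumor, the mean log2(scaled FPKM + 1) over the 10 Hoxb genes, ran from 0.34 to 4.85. The sgKdm5a-labelled tumors 1 to 8 stood at 4.38, 0.34, 3.64, 4.32, 2.66, 3.54, 4.49 and 4.85. The sgControl-labelled tumors 1 to 8 stood at 3.33, 2.51, 0.57, 2.81, 3.42, 1.96, 0.48 and 4.14. The means were 3.53 ± 1.46 for sgKdm5a-labelled tumors, against 2.40 ± 1.33 for sgControl-labelled tumors (SD, n = 8 for both), and the values overlapped (difference 1.12, exact permutation p = 0.128). Without sgKdm5a-labelled tumor 2 the difference was 1.58 (exact permutation p = 0.0143). A gap of 1.39 separated sgKdm5a-labelled tumor 2 and sgControl-labelled tumors 3 and 7 from the other 13 tumors, so correlations were computed only within those 13.

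Across all 16 tumors, Jarid2 was the Polycomb gene whose RNA fell with the Hoxb level. Jarid2 was 17.6, 19.8 and 13.03 scaled FPKM in the tumors of lowest Hoxb level, sgKdm5a-labelled tumor 2 and sgControl-labelled tumors 3 and 7, and 7.35 and 6.45 in those of highest level, sgKdm5a-labelled tumors 8 and 7. Its slope was -0.25 log2 units per unit of Hoxb level (95% interval -0.38 to -0.13; limma, adjusted p = 0.0418). This was 1 of 10 Polycomb genes called lower, against 131 of 13115 genes (0.999%), and 0 of 10 called higher, against 100 (0.762%). The slope was negative in all 28 other settings, by 0.14 to 0.29, but the call was kept in only 8 and lost in 20, among them 10 of the 16 fits without 1 tumor. It was lost without sgKdm5a-labelled tumor 1, 2, 4, 6, 7 or 8 or sgControl-labelled tumor 3, 6, 7 or 8 (limma, adjusted p of 0.0513 to 0.105), and within the 13 tumors (slope -0.24; limma, adjusted p = 0.414).

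The slopes of Cbx2 and Bmi1 were close to that of Jarid2 and missed the threshold. Cbx2 had a slope of -0.25 (95% interval -0.39 to -0.10; limma, adjusted p = 0.0671) and Bmi1 one of -0.24 (-0.39 to -0.09; limma, adjusted p = 0.0890). Bmi1 was highest in sgControl-labelled tumor 3, at 81.2 scaled FPKM, and lowest in sgKdm5a-labelled tumor 8, at 18.8. Without sgControl-labelled tumor 1 both were called (limma, adjusted p = 0.0352 for Cbx2 and 0.0477 for Bmi1), and Cbx2 also with the label as a covariate (limma, adjusted p = 0.0466). Ezh1 had the steepest positive slope of the group, 0.18 (0.04 to 0.31; limma, adjusted p = 0.148). Suz12 had a slope of -0.12 (adjusted p = 0.286) and Rnf2 one of -0.08 (adjusted p = 0.469), and that of Rnf2 was 0.02 without library scaling. Cbx7, Cbx8, Ezh2 and Eed had slopes of 0.08, 0.07, 0.01 and 0.01 (limma, adjusted p of 0.531 to 0.970). The Ezh2 interval ran from -0.28 to 0.31 and was the widest of the 10. Together 4 of 10 had an unadjusted p under 0.05, 1 higher and 3 lower, against 8.6% and 10.4% of tested genes, and the median slope of the 10 was -0.04, against -0.0054 over all genes. Without library scaling the median was 0.04, against 0.08 over all genes.

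Within the 13 tumors whose Hoxb levels formed 1 cluster, Ezh1 followed the Hoxb level most closely. Its Pearson r was 0.80 (permutation p = 0.00131) and its Spearman rho 0.79 (permutation p = 0.00210). It was 0.68 without the 2 tumors farthest from the median Hoxb level and 0.92 in the 8 of these tumors numbered 190 to 238. In absolute size such an r was reached by 0.747% of tested genes. Ezh1 was 16.5 and 17.0 scaled FPKM in sgKdm5a-labelled tumors 8 and 7, of highest Hoxb level, and 6.21 and 6.57 in sgControl-labelled tumors 6 and 2, of lowest level among the 13; the exception was sgKdm5a-labelled tumor 3, at 6.16. Its slope over these tumors was 0.41 (95% interval 0.19 to 0.63) and was not called over all genes (limma, adjusted p = 0.127), where 4 genes (0.0305%) were called higher and 1 (0.00762%) lower. At an unadjusted p under 0.05 in this fit 1 of 10 Polycomb genes was higher, Ezh1, against 6.26% of tested genes, and 4 were lower, Ezh2, Suz12, Bmi1 and Cbx2, against 6.9%.

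Suz12 and Ezh2 had negative correlations with the Hoxb level in the 13 tumors, at an unadjusted p under 0.05. For Suz12 r was -0.63 (permutation p = 0.0234; rho -0.65, permutation p = 0.0179), -0.70 without the 2 farthest tumors and -0.61 in tumors 190 to 238. For Ezh2 r was -0.57 (permutation p = 0.0425; rho -0.57, permutation p = 0.0445), -0.43 without the 2 farthest tumors and -0.73 in tumors 190 to 238. Over all 16 tumors its slope was 0.01, and it was -0.23 without sgKdm5a-labelled tumor 2, which was low in both measures. In the 13 tumors the Hoxb level went in part with the label. The highest levels were in sgKdm5a-labelled tumors 8, 7, 1 and 4 (4.85, 4.49, 4.38 and 4.32). The lowest were in sgControl-labelled tumors 6 and 2 (1.96 and 2.51), with overlap through sgKdm5a-labelled tumor 5 (2.66) and sgControl-labelled tumor 8 (4.14). Ezh2 was also lower in sgKdm5a-labelled tumors, and the part of the label in its r was not tested. For Jarid2 r was -0.53 (permutation p = 0.0636; rho -0.60, permutation p = 0.0325) and for Eed -0.44 (permutation p = 0.132; rho -0.36, permutation p = 0.223). Among PRC1 genes r was -0.55 for both Bmi1 and Cbx2 (permutation p = 0.0550 and 0.0549; rho -0.61 and -0.36, permutation p = 0.0310 and 0.225), and that of Cbx2 shrank to -0.20 without the 2 farthest tumors. Rnf2, Cbx7 and Cbx8 had r of -0.01, 0.29 and 0.18 (permutation p of 0.340 to 0.971), and that of Cbx7 turned to -0.66 without the 2 farthest tumors, on which it rested. These p-values stand for 10 genes side by side and are not adjusted; over all tested genes no Polycomb gene was called in the 13 tumors (limma, adjusted p of 0.127 to 0.991), and 17.9% of tested genes had an r of over 0.5 in absolute size.

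**Figure D4:**
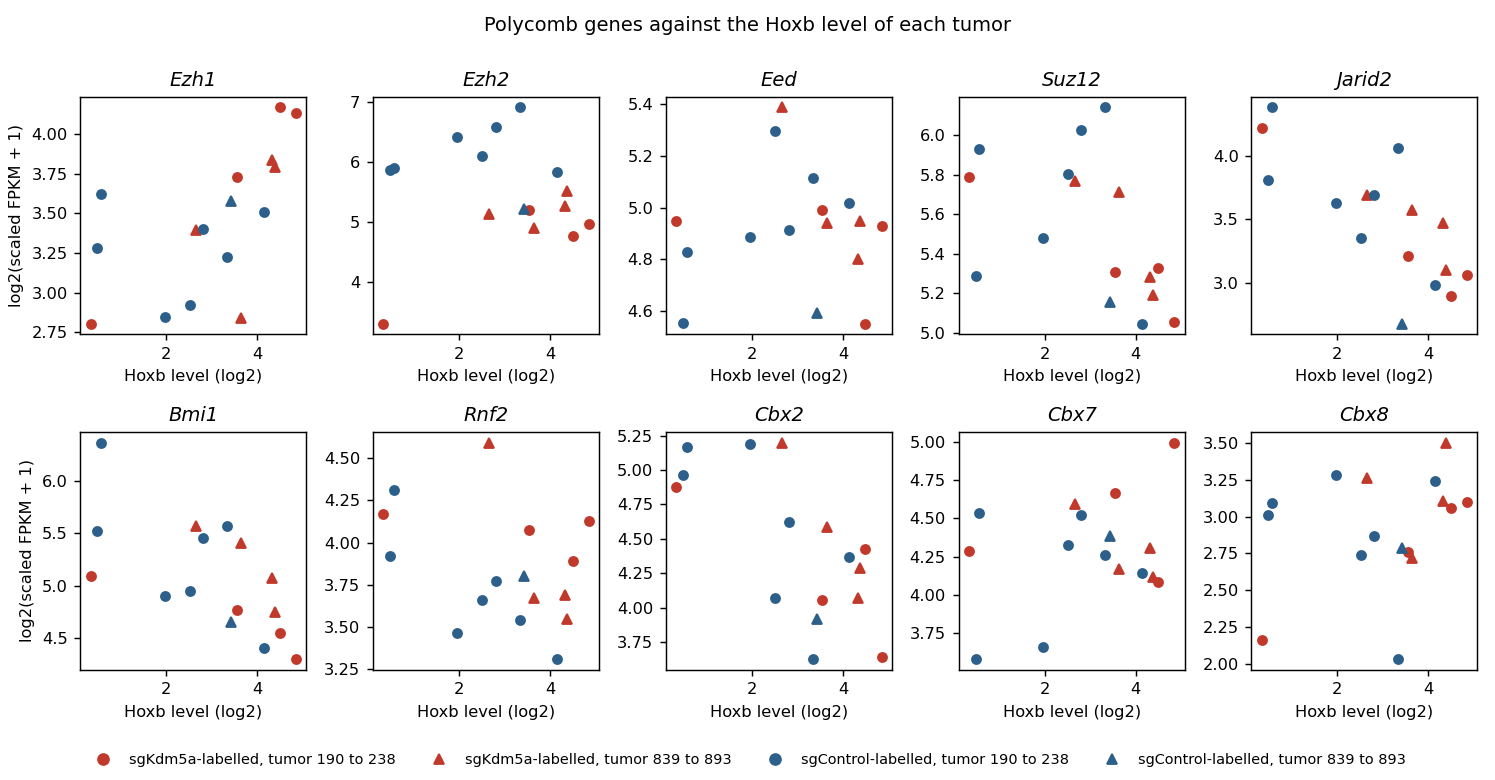
Log2(scaled FPKM + 1) of each Polycomb gene against the Hoxb level of the tumor, both on log2 scales, in red for sgKdm5a-labelled and blue for sgControl-labelled tumors, with circles for tumors 190 to 238 and triangles for tumors 839 to 893. The 3 tumors left of the gap lie at Hoxb levels of 0.34 to 0.57, and right of it Ezh1 is higher at higher Hoxb level (r 0.80) while Suz12 is lower (r -0.63).

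Other Polycomb genes showed 1 call on the Hoxb level. Among 22 other PRC1 genes, 1 was called lower and 0 higher, against 0.999% and 0.762% of tested genes. The gene called, Scmh1, a SAM-domain protein of PRC1, had a slope of -0.26 (95% interval -0.37 to -0.14, limma, adjusted p = 0.0251). It held 36.1 scaled FPKM in sgKdm5a-labelled tumor 2, 31.6 and 36.8 in sgControl-labelled tumors 3 and 7, and 15.1 in sgKdm5a-labelled tumor 8. Next was Phc2, a polyhomeotic subunit of PRC1, at -0.30 (limma, adjusted p = 0.0680). Of 6 other PRC2 genes 0 were called, with Phf1, a Polycomb-like protein, at 0.20 and Rbbp4, a histone-binding subunit shared with other complexes, at -0.24 (limma, adjusted p = 0.120 and 0.125). Of the 6 PR-DUB and demethylase genes 0 were called, with Asxl3 at -0.14 and Bap1 at -0.10 (limma, adjusted p = 0.247 and 0.451). Without sgKdm5a-labelled tumor 2 or 8 or sgControl-labelled tumor 7 Scmh1 was not called (adjusted p of 0.0606 to 0.0729), nor was it within the 13 tumors (-0.22, adjusted p = 0.419) or without library scaling (-0.15, adjusted p = 0.557). Its slope was negative in all 28 other settings and its call was lost in 10, the others being no filter (adjusted p = 0.0546), tumors 190 to 238 (0.0523), the tumor number as a block (0.428), the mitosis score (0.164) and Hoxb9 alone (0.114). Positive slopes numbered 2 of 22, 1 of 6 and 0 of 6 in these lists, against 48.3% of tested genes. Without library scaling they numbered 13 of 22, 4 of 6 and 2 of 6. The list medians were then 0.0085, 0.028 and -0.0073, all below the median of 0.078 over all genes in that fit. Cdkn2a, at 251 in sgKdm5a-labelled tumor 2 and 259 in sgControl-labelled tumor 3, had a slope of -0.14, and Cdkn2b one of 0.28 (limma, adjusted p = 0.328 and 0.138).

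Mitosis genes had negative slopes on the Hoxb level and neuroendocrine markers mostly positive ones. All 20 mitosis genes were negative (median -0.11), and 16 of 20 without library scaling (-0.05). Over all tested genes 48.3% of slopes were positive, and the median slope without library scaling was 0.08. Of the mitosis genes 1 was called, against 0.999% of tested genes called lower. It was Cdc20, an activator of the anaphase ligase, at -0.42 (limma, adjusted p = 0.0167), and the next was Aurkb, a mitotic kinase, at -0.22 (adjusted p = 0.0915). The Cdc20 slope was negative in all 28 other settings and its call was lost in 7: without sgKdm5a-labelled tumor 2 (adjusted p = 0.0632), without library scaling (0.263) or the filter (0.0590), with Hoxb9 alone as the level (0.0560), in the 13 tumors (0.237), with the mitosis score (0.156) and with the tumor number as a block (0.428). Mki67 had a slope of -0.24 (adjusted p = 0.251), and the replication genes Cdt1 and Uhrf1 slopes of -0.27 and -0.15 (adjusted p = 0.0634 and 0.148). The mitosis score fell with the Hoxb level in the 13 tumors (r -0.77, permutation p = 0.00262; rho -0.75, permutation p = 0.00410; -0.65 without the 2 farthest tumors and -0.79 in tumors 190 to 238). With the mitosis score as a covariate the Jarid2 slope was -0.16 (limma, adjusted p = 0.249). Of 15 neuroendocrine markers 12 had positive slopes and 2 were called higher, against 0.762% of tested genes. These were Chgb and Syt1, at 0.49 and 0.35 (limma, adjusted p = 0.0204 and 0.0164), named here after their values were seen. Of 28 other settings the Chgb call was lost in 7 and the Syt1 call in 5, with the sign kept throughout. Both were lost in tumors 190 to 238 (adjusted p = 0.0545 and 0.0893), in the 13 tumors (0.298 and 0.241), with the mitosis score (0.124 and 0.141) and with the tumor number as a block (0.428 and 0.124). Chgb was also lost without the filter (0.0659) and without sgKdm5a-labelled tumor 2 or 8 (0.0650 and 0.0551), and Syt1 without library scaling (0.0515). Fibroblast, endothelial and alveolar type 2 markers had positive slopes in 6 of 6, 7 of 8 and 6 of 6 (medians 0.34, 0.16 and 0.13, 0 called). Macrophage, T cell and neutrophil markers had them in 2 of 8, 1 of 2 and 0 of 2 tested. For B cell, ciliated and erythroid markers they numbered 3 of 3, 3 of 4 and 4 of 4, with 0 called in these lists. The part of the neuroendocrine, fibroblast, endothelial and alveolar genes in the Polycomb slopes was not tested.

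Polycomb genes followed the mitosis score in unequal measure over the 16 tumors. For Bmi1 r was 0.85 (permutation p = 5e-05; rho 0.84, permutation p = 0.00013), for Suz12 0.82 (permutation p = 9e-05; rho 0.80, permutation p = 0.00035) and for Jarid2 0.76 (permutation p = 0.00078; rho 0.81, permutation p = 0.00024). Without the 2 tumors farthest from the median score these were 0.75, 0.75 and 0.61, and in tumors 190 to 238 they were 0.84, 0.79 and 0.73. In absolute size an r like that of Bmi1, Suz12 and Jarid2 was reached by 0.389%, 0.724% and 2.35% of tested genes. Ezh2 followed less closely (r 0.56, permutation p = 0.0228; rho 0.61, permutation p = 0.0148), at 0.45 without the 2 farthest tumors and 0.46 without sgControl-labelled tumor 1 (permutation p = 0.0823). Cbx2 had r of 0.50 with all tumors (permutation p = 0.0482) and 0.81 without sgControl-labelled tumor 1 (permutation p = 0.00025). Ezh1 was negative (r -0.49, permutation p = 0.0560; rho -0.59, permutation p = 0.0175), and Eed, Rnf2, Cbx7 and Cbx8 had r of 0.34, 0.09, -0.18 and -0.17 (permutation p of 0.195 to 0.741). These 10 relations were chosen after the data were seen and their p-values are not adjusted; 24.3% of tested genes had an r of over 0.5 in absolute size.

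**Figure D5:**
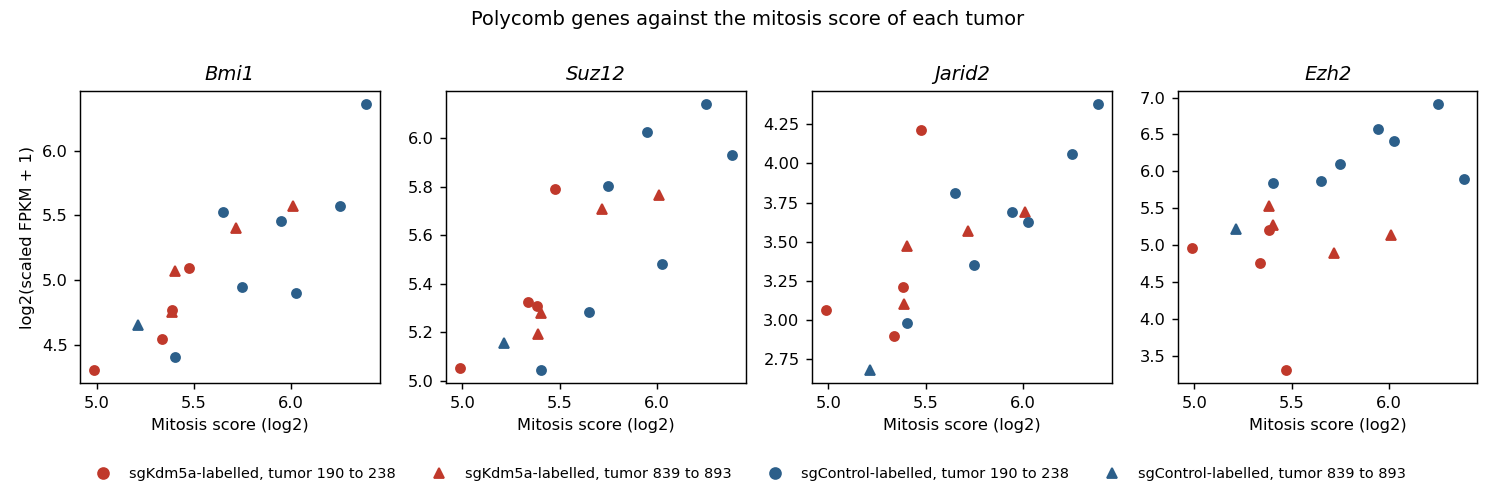
Log2(scaled FPKM + 1) of Bmi1, Suz12, Jarid2 and Ezh2 against the mitosis score (mean log2 level of 20 mitosis genes), in red for sgKdm5a-labelled and blue for sgControl-labelled tumors, with circles for tumors 190 to 238 and triangles for tumors 839 to 893. Bmi1, Suz12 and Jarid2 are higher at higher score (r 0.85, 0.82 and 0.76), and Ezh2 less closely so (r 0.56), with sgKdm5a-labelled tumor 2 far below the rest.

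Among the Polycomb genes themselves, Jarid2, Bmi1 and Suz12 were the most alike across tumors. Over 45 pairs and 16 tumors, r ranged from -0.55 (Suz12 with Cbx8) to 0.84 (Jarid2 with Bmi1), 26 pairs were above 0, and 3 were over 0.7. Jarid2 with Bmi1 had rho 0.90 and r 0.80 without the 2 farthest tumors, Suz12 with Jarid2 r 0.76 and rho 0.73, and Suz12 with Bmi1 r 0.76 and rho 0.78. Ezh2, by contrast, had r of 0.27 with Suz12, 0.15 with Eed and -0.09 with Ezh1. These values share the library scaling and are given as descriptions, and the part of the mitosis score in them was not tested. The tested gene most like each Polycomb gene other than Jarid2 across the 16 tumors, by Pearson r, was Spry1 for Ezh1 (0.87), Supt3 for Ezh2 (0.89), Ten1 for Eed (0.87), Cep57 for Suz12 (0.92), Ccni for Bmi1 (0.93), Zbtb49 for Rnf2 (0.80), Prrc2b for Cbx2 (0.95), Slc25a32 for Cbx7 (0.83) and Scd2 for Cbx8 (0.90). The next after these were Gas2l1 and Arhgef5 for Ezh1, 2810442I21Rik and Prelid2 for Ezh2, Tpd52 and Glrx3 for Eed, and Srsf3 and Tex30 for Suz12. For the PRC1 genes they were Dr1 and Heca for Rnf2, Dpysl5 and Dcakd for Cbx2, Tmem65 and Trpm4 for Cbx7, and Agpat1 and Gpr107 for Cbx8. Srrm1 and Gm5643 were among the 3 genes most like Jarid2, and Anp32e was among the 3 most like Bmi1.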

How the data were processed

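RNA sequencing of 16 bulk tumors was analysed from the table the authors deposited. The deposited values were read as FPKM normalized by the authors, a unit inferred from the values. Per the submitters' processing notes, the tools were Cufflinks 2.2.1 and STAR 2.5.1b with build mm9, and the role of each tool, the annotation and the strand setting are not stated there. Read depth is unknown, so no counting intervals are given. Of 24043 entries, 27 with names turned into dates were left out, and 13123 of 24016 had at least 1 FPKM in at least 8 tumors.

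Libraries were brought to the same median of tested genes (11.8 FPKM), and values were transformed to log2(scaled FPKM + 1), which understates changes of low genes. Labels and the Hoxb level were tested with limma 3.58.1 in R 4.3.3 (trend, robust, Benjamini-Hochberg over all tested genes, threshold 0.05); single genes with exact permutation tests and correlations with 100000 permutations in SciPy 1.17.1 (Python 3.11.15), all two-sided. The fits were also run on simulated data, but the outcome is not given here and no value reported here rests on it. Hoxb genes were left out of the counts on the Hoxb level. No pair of the 120 possible library pairs was identical. Each library had a lung tumor number of its own, and whether any tumors shared a mouse is not given in the sources used here. Per the labels, libraries were stranded and made from total RNA.

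The Polycomb genes and all lists were chosen with earlier results of these data known. Genes named are the 10 Polycomb genes, the Hoxb genes, the engineered loci, Cdkn2a and Cdkn2b, of each other Polycomb list the called genes and the 2 of smallest p, Mki67 and the 2 of smallest p of the mitosis and replication lists, and for each Polycomb gene the 3 genes of highest r, of which some are not reported here. Promoter windows came from RefSeq (GRCm38.p6), not the build of the files, and were matched by symbol. Alternatives were no scaling, quantile normalization, no filter, a pseudocount of 0.1, sample weights, tumors 190 to 238 alone, the number series, mitosis score or tumor number as terms, Hoxb9 alone or summed Hoxb RNA as the level, and each tumor left out. Chosen after the data were seen were the Hoxb level as a covariate, the interaction of label and number series, the 13-tumor fit and the correlations with the mitosis score. Exact permutation tests of the Polycomb genes and of the mitosis score were added to those planned for the engineered loci and the Hoxb level.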

Additional observations from a re-analysis of the deposited data

Results flagged for a closer look

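Values on the log2(scaled FPKM + 1) scale were examined for a tumor far from the others of its label. The measure was the gap to its nearest neighbour over the range of the 8 tumors (critical value 0.526), in 50 groups of 8. In all, 9 groups passed. Chance alone gives about 1 in 20 for a single group. The groups are not independent, since they include the Hoxb genes and the Hoxb level made from them, so the count cannot be set against that rate. The gaps below are on that log2 scale, and the levels beside them are in scaled FPKM. Ezh2 in sgKdm5a-labelled tumor 2 was the lowest of its label at 8.88 scaled FPKM (gap 0.657 of the range), and the same tumor was the lowest for Hoxb2 (0.796), Hoxb3 (0.718), Hoxb4 (0.604), Hoxb5 (0.724) and Hoxb6 (0.603) and the highest for Cdkn2a, at 251 scaled FPKM (0.666). Cbx8 was lowest in sgControl-labelled tumor 1, at 3.09 scaled FPKM (0.562), and Kdm5a was highest in that tumor, at 16.3 scaled FPKM (0.616). That tumor is the library in which Mir6236 held 88.9% of the summed FPKM. Ezh2 and Cbx8 results without these tumors stand beside their values above, or among the ranges below.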

How the results depend on the processing

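By label, 0 genes higher and 0 lower became 1 and 0 without scaling, 32 and 38 with sample weights and 3 and 1 with the Hoxb level as a covariate, and 0 to 1 in each direction with 1 tumor left out. On the Hoxb level, 100 genes higher and 131 lower became 21 and 27 without the filter, 23 and 34 in tumors 190 to 238, 13 and 9 with the mitosis score, 199 and 287 with the label as a covariate, 62 and 72 with summed Hoxb RNA and 4 and 1 in the 13 tumors; those lower became 6 without scaling and 49 with Hoxb9 alone. With 1 tumor left out they ranged from 22 to 311 higher and 17 to 381 lower, the highest without sgControl-labelled tumor 1. The tumor numbers did not pair the tumors (same-number correlations of -0.298 to 0.375, 2 of 8 over 0.1, and 1 of 8 best with its own number). With the tumor number as a block the counts were 0 and 0 by label and 4 and 1 on the Hoxb level, and the Jarid2 adjusted p was 0.428 (limma).

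None of the Polycomb values whose sign turned was called in the fit in which it turned (limma, adjusted p of 0.294 or more). By label, differences turned to 0.0789 for Suz12, 0.0609 for Jarid2 and 0.12 for Cbx2 without scaling, to 0.13, 0.23, 0.20 and 0.18 for Suz12, Jarid2, Cbx2 and Bmi1 with the mitosis score, to 0.13 for Jarid2, 0.21 for Cbx2 and -0.0064 for Cbx8 with the Hoxb level, to -0.0900 for Eed and -0.13 for Cbx8 in tumors 190 to 238, and to -0.0101 for Cbx8 with the number series. Slopes turned to -0.20 for Ezh2 with the block, to -0.0504 for Ezh2 and -0.0131 for Eed with Hoxb9 alone, to -0.46 for Ezh2 and -0.12 for Eed in the 13 tumors, and to 0.0245 for Rnf2 without scaling. With 1 tumor left out, label differences spanned -0.0278 to 0.0931 for Eed, -0.22 to 0.00956 for Cbx2, -0.0455 to 0.19 for Cbx8 and -0.47 to 0.00018 for Trp53, slopes -0.23 to 0.0564 for Ezh2 and -0.0300 to 0.0265 for Eed, and the Hoxb level by label 0.85 to 1.58. The causes were not tested.

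Unknown read depth limits what can be said of low values such as Hoxb1 and Hoxb13, and tumors 839 to 893 held 1 sgControl-labelled tumor, so the label difference within that series has no spread on that side.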
